A study of Mus musculus with 8 samples.

Results

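Slit2, Nog, Car10, Dbc1, Adm, Alg3 and 1810031K17Rik were 7 of the 23335 gene names in the count table. They were chosen as candidate marker genes of Pv cells on the contrast between Pv and ChC cells in these same data, so their own levels in those cell types are given as a description and without a test. Their counts were unique molecular identifiers (UMI), random tags that let each captured RNA molecule be counted once.

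Chandelier cells (ChC) and parvalbumin-positive cells (Pv) of the cerebral cortex are inhibitory neurons that use GABA and mostly arise in the medial ganglionic eminence. The synapses of chandelier cells sit on the initial part of the pyramidal axon, whereas Pv basket cells contact the cell body and nearby dendrites. Among the genes described here, Slit2 encodes a secreted ligand of Robo receptors that guides axons, Nog encodes noggin, a secreted antagonist of bone morphogenetic proteins (BMPs), and Adm encodes the precursor of adrenomedullin, a secreted peptide hormone. Car10 encodes a catalytically inactive relative of the carbonic anhydrases that binds neurexins, and Dbc1, now named Brinp1, encodes a BMP- and retinoic acid-inducible protein of neurons. Alg3 encodes a mannosyltransferase that builds the lipid-linked oligosaccharide used for N-glycosylation in the endoplasmic reticulum, and 1810031K17Rik, now named Cnppd1, encodes a protein with a cyclin-related domain.

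Single red-fluorescent neurons were picked from the frontal cortex of 4 female mice, called WT in the sample titles. ChC cells came from Nkx2.1-CreER; Ai14 mice, in which tamoxifen given at E17.5 switched on the reporter in cells that then used the Nkx2.1 promoter: animal 1, aged 31 postnatal days, gave library batches 1 and 2, and animal 2, aged 32 days, gave batches 3 and 4. Pv cells came from Pv-ires-Cre; Ai14 mice, in which the parvalbumin gene drives Cre: animal 3, aged 29 days, gave batches 5 and 6, and animal 4, aged 35 days, gave batches 7 and 8. The labels give the tamoxifen treatment of the Nkx2.1-CreER line for the Pv samples too, and no experimental treatment for any sample. Both cell types had their own mouse line and their own flow cell, and effects of the 3 cannot be told apart.

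Each batch held 16 cell columns, of which 1 in batch 4 and 1 in batch 6 were empty, leaving 63 ChC and 63 Pv cells. No cell name occurred in more than 1 batch. Depth was uneven. Totals were 527743, 657957, 2898413 and 1307666 UMI in ChC batches 1 to 4. In Pv batches 5 to 8 they were 456458, 501563, 370238 and 921212 UMI. The median cell had 39200 UMI among ChC cells and 27116 among Pv cells. Levels below are CPM, the UMI of a gene scaled to a common batch total, with TMM scaling between batches, given as mean ± SD over the 4 batches of a cell type. Because 2 batches shared each animal, these SDs are not between independent animals.

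The labelled cell types were first set against their markers. Gad1, an enzyme of GABA synthesis, had a UMI in 63 of 63 Pv cells and 62 of 63 ChC cells, and Slc32a1, the vesicular GABA transporter, in all cells of both. Pvalb, which encodes parvalbumin, stood at 1488, 689, 414 and 1042 CPM in Pv batches 5 to 8. In ChC batches 1 to 4 it stood at 142, 165, 100 and 75.9 CPM. The groups did not overlap, and 52 of 63 ChC cells still held a Pvalb UMI. Erbb4, a neuregulin receptor of interneurons, showed the opposite order, at 1470 ± 287 CPM in Pv and 4018 ± 506 CPM in ChC batches.

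The 7 genes fell into patterns that the cell type labels alone do not describe. Slit2, Nog and Car10 were present in every Pv batch. Dbc1 was present in Pv batches 6, 7 and 8 and in 1 cell of batch 5. Adm, Alg3 and 1810031K17Rik were present in every cell of batches 6 and 8, were at 1 or 2 UMI in batch 5, and differed in batch 7. Since batches 5 and 6 shared an animal, as did 7 and 8, these differences lay within animals. Only Slit2, Nog, Car10 and Adm had all 4 Pv batches above all 4 ChC batches, and for Adm this rested on 1 UMI in batch 5. The same non-overlap, with Pv higher, was found for 138 of 9829 genes tested (1.4%), and nothing is read from the 4 of 7 because the contrast chose the genes.

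**Figure D1:**
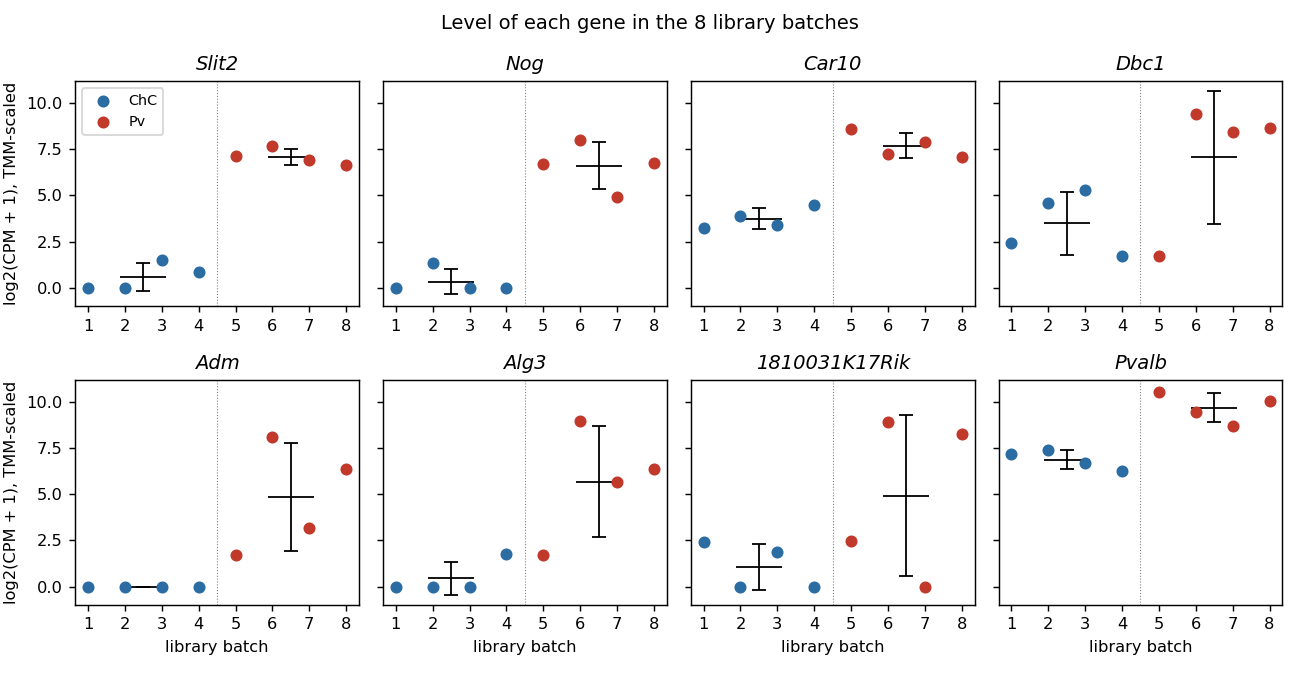
Level of each gene in each library batch as log2(CPM + 1), TMM-scaled, with ChC batches in blue and Pv batches in red; the black bar and whiskers are the mean and SD of the 4 batches. Slit2, Nog, Car10 and Pvalb are high in all 4 Pv batches, whereas Dbc1, Adm, Alg3 and 1810031K17Rik are low in Pv batch 5.

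Of the secreted ligands, Slit2 was the steadiest. It stood at 141, 201, 119 and 101 CPM in Pv batches 5 to 8, and at 0, 0, 1.89 and 0.782 CPM in ChC batches 1 to 4. The Pv mean was 140 ± 43.5 CPM and the ChC mean 0.667 ± 0.893 CPM, with all Pv batches above all ChC batches. Pooled over cells, 312 Pv UMI against 6 ChC UMI gave a ratio of 125 per total UMI (95% counting interval 56.6 to 342); such intervals and all limits given here cover counting error only. Its highest Pv batch was 1.99 times its lowest. As a measure of unevenness, the chi-square per degree of freedom of its UMI over the 4 Pv batches, given their totals, was 6.96.

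Nog, the BMP antagonist, stood at 104, 258, 29.3 and 109 CPM in Pv batches 5 to 8. Among ChC cells it was found as a single UMI, in batch 2. The Pv batches spanned 8.79-fold, with batch 6 highest and batch 7 lowest, and all lay above the 1.52 CPM of ChC batch 2. The pooled ratio was 681 with an interval from 121 to 26981, since the ChC count was 1.

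Adm, the peptide hormone precursor, was not found in any ChC cell. Its Pv batches 5 to 8 stood at 2.31, 276, 7.81 and 80.5 CPM. These came from 1, 132, 4 and 75 UMI. Batches 6 and 8 were high, whereas batches 5 and 7 held few molecules. Against a floor of 3 counts over all ChC cells, the pooled Pv level was at least 169-fold higher, and without batch 6 at least 82.3-fold higher. The difference of mean log2(CPM + 1), Pv minus ChC, was 4.83 with all batches, 3.74 without batch 6 and 5.87 without batch 5. The Pv SD of 128 CPM was larger than the Pv mean of 91.8 CPM.

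Car10, the neurexin ligand, stood at 383, 153, 236 and 133 CPM in Pv batches 5 to 8. With at least 1 UMI at full depth it was also the member most widely seen in ChC cells, in 30 of 63. With at least 2 UMI it was in 14, and Dbc1 in 15. Car10 stood at 8.58, 13.7, 9.43 and 21.1 CPM in ChC batches 1 to 4. The Pv mean of 226 ± 114 CPM against 13.2 ± 5.73 CPM in ChC batches left the groups apart, with a pooled ratio of 17.8 (95% counting interval 13.8 to 23.5). Its order over the Pv batches was not that of Nog: batch 5 was the highest for Car10 and batch 6 for Nog and Slit2.

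Dbc1 stood at 2.31, 678.5, 346 and 405 CPM in Pv batches 5 to 8. In ChC batches 1 to 4 it stood at 4.29, 22.8, 38.1 and 2.35 CPM. Pv batch 5, with 1 UMI in 456458, therefore lay at the low end of the ChC range. By a floor of 3 counts it allows up to 6.57 CPM, so its place below ChC batches 1 and 4 is not resolved. The other Pv batches lay above all ChC batches. The Pv mean of 358 ± 278 CPM and the pooled ratio of 17.4 (interval 14.4 to 21.2) average over that gap. Of the 121 ChC UMI, 101 were in ChC batch 3, so the pooled ratio also depends on that batch. The difference of mean log2(CPM + 1), Pv minus ChC, was 3.56 with all batches, 5.34 without batch 5 and 2.77 without batch 6.

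Alg3, the mannosyltransferase, stood at 2.31, 498, 48.8 and 80.5 CPM in Pv batches 5 to 8. Its 3 ChC UMI were all in batch 4, at 2.35 CPM. Batch 6 alone carried 238 of the 339 Pv UMI, and batch 5 carried 1. The pooled ratio was 271, with a counting interval from 91.9 to 1320. Without batch 5 the difference of mean log2(CPM + 1) was 6.55, and without batch 6 it was 4.14, against 5.23 with all batches.

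1810031K17Rik was the member found in all cells of 1 batch and in at most 1 cell of the other in both Pv animals. It stood at 4.61 and 486 CPM in batches 5 and 6 of animal 3, and at 0 and 306 CPM in batches 7 and 8 of animal 4. The ChC batches stood at 4.29, 0, 2.64 and 0 CPM, so 2 of the 4 Pv batches lay in or beside the ChC range. A count of 0 among the 370238 UMI of batch 7 allows up to 8.10 CPM of the batch total, by a floor of 3 counts. Summed per animal, the same gene reached 244 and 221 CPM of the total in Pv animals 3 and 4, and 1.69 and 1.66 CPM in ChC animals 1 and 2. The animal sums hid the difference between the batches. Its log2 difference of 3.85 became 5.49 without batch 7 and 2.52 without batch 6.

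Ordered by Pv level within each gene, batch 6 was highest for Slit2, Nog, Dbc1, Adm, Alg3 and 1810031K17Rik, and batch 5 for Car10. Over the 7 genes the median difference of mean log2(CPM + 1), Pv minus ChC, was 4.83, from 3.56 for Dbc1 to 6.51 for Slit2. These values depend on the pseudocount: with 10 CPM in place of 1 they ran from 2.29 for Adm to 3.78 for Slit2, and Dbc1, at 3.03, lay above Alg3, 1810031K17Rik and Adm. Over the 9829 genes tested the median was -0.21. Nog had 6.27, Alg3 5.23, Adm 4.83, Car10 3.96 and 1810031K17Rik 3.85 on the same scale. In this ranking of all genes tested Slit2 was number 1, Nog 2, Alg3 4, Adm 10, Car10 33, 1810031K17Rik 40 and Dbc1 72. Ranks on the contrast that chose the genes carry no support for it.

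Detection in single cells followed the batches closely. Slit2 had a UMI in 56 of 63 Pv cells, Nog in 54, Car10 in 61, Dbc1 in 48, Alg3 in 44, Adm in 35 and 1810031K17Rik in 32. Among the 63 ChC cells the same genes were found in 6, 1, 30, 22, 3, 0 and 8 cells. The 0 of 63 for Adm allows a share of up to 4.76% of cells with a UMI.

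Depth entered these shares. At a fixed 10000 UMI per cell, which left out 4 Pv and 14 ChC cells, the share of Pv cells expected to hold a UMI was 73.2% for Slit2, against 88.9% at full depth. It was 59.9% for Nog against 85.7%, and 87.6% for Car10 against 96.8%. The order of the members by share differed from that at full depth: Dbc1 reached 74.5% against 76.2%, and so passed Slit2. Adm stood at 39.1% against 55.6%, Alg3 at 49.98% against 69.8%, and 1810031K17Rik at 48.3% against 50.8%. In ChC cells the thinned shares were 11.9% for Car10 and 13.6% for Dbc1, against 47.6% and 34.9% at full depth. For Slit2, Nog, Alg3 and 1810031K17Rik they were between 0.174% and 1.75%. Pvalb reached 99.8% of Pv and 62.8% of ChC cells at this depth.

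**Figure D2:**
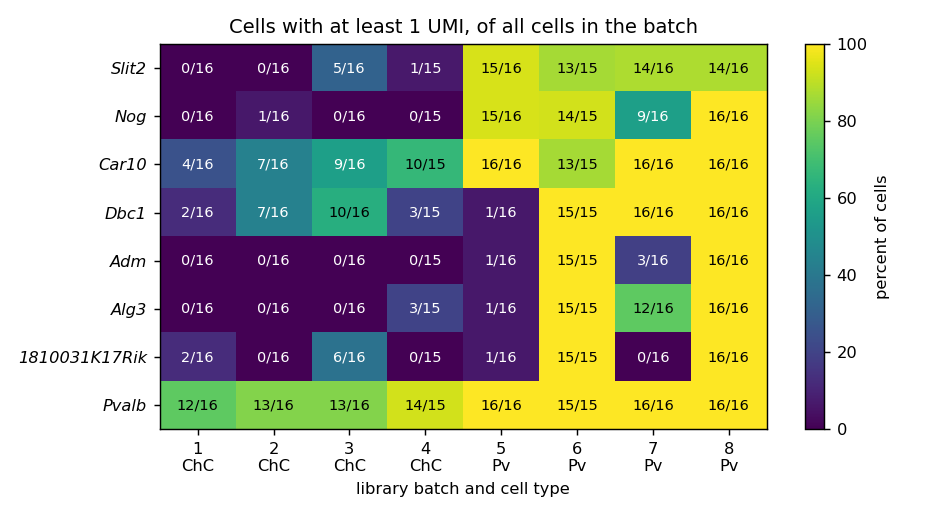
Cells with at least 1 UMI of each gene, of all cells with counts in each library batch; colour gives the percent of cells. Dbc1 is in 1 of 16 cells of Pv batch 5 and in all cells of Pv batches 6, 7 and 8, and 1810031K17Rik is in all cells of batches 6 and 8 and in 0 of 16 cells of batch 7.

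Within a batch, detection was close to all or nothing for several genes. Dbc1 was found in 1 of 16 cells of batch 5, 15 of 15 of batch 6, 16 of 16 of batch 7 and 16 of 16 of batch 8. Adm was found in 1, 15, 3 and 16 cells of the same batches, Alg3 in 1, 15, 12 and 16, and 1810031K17Rik in 1, 15, 0 and 16. The 0 of 16 cells of batch 7 allows a share of up to 18.8%. The median cell held 26941 UMI in batch 5 and 26606 UMI in batch 6, a pair of like depth. It held 17416 UMI in batch 7 and 51157 UMI in batch 8, so the batch with fewer detections was there the shallower. At a fixed 10000 UMI per cell, the share for 1810031K17Rik was 0% of 15 cells in batch 7 and 95.7% of 16 cells in batch 8. For Adm these shares were 7.55% and 58.8%. Slit2, by contrast, was found in 15, 13, 14 and 14 cells, and Car10 in 16, 13, 16 and 16. Nog was found in 15, 14, 9 and 16 cells, the 9 being in batch 7, where its level was also lowest.

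The spread between cells of a batch was set beside counting error. With all cells of a batch at its mean level and Poisson counting at each cell's own total, 8.82 cells of batch 7 would hold Nog, and 9 did. For Alg3 in batch 7 the expected number was 11.3 and the observed 12, and for Dbc1 in ChC batch 3 they were 12.8 and 10. Most other members and batches had nearly all cells or almost no UMI, where the expected number is close to the observed one by construction and tells nothing of the spread.

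Over the 22 pairs of a member and a Pv batch with at least 15 UMI, the chi-square per degree of freedom between cells, given their totals, ran from 0.356 for Adm in batch 6 to 1.96 for Nog in batch 5, with a median of 1.32. A value near 1 is what counting alone gives when all cells hold the same level, and with few UMI per cell the measure is blind to moderate spread. Among pairs with more UMI it was 0.917 for Dbc1 in batch 8, 1.37 for Dbc1 in batch 6 and 1.33 for 1810031K17Rik in batch 8. For Pvalb it ran from 0.796 in batch 8, with 970 UMI, to 1.72 in batch 7, with 212 UMI. The median over all genes with 15 to 400 UMI in the batch was 1.05 in batch 5, 1.10 in batch 6, 1.15 in batch 7 and 1.06 in batch 8. In the ChC batches it lay between 1.04 and 1.08, so values near 1 were found in both cell types. Since these values lay mostly near what counting gives, what each cell held and what the cells of a library shared cannot be told apart, and every share of cells and co-detection given here is subject to that limit. Whether UMI were assigned across cells of a library was not tested. Over the 4 Pv batches, where each sum holds more UMI than a cell and the same relative spread gives a larger value, the measure was 27.5 for Nog, 35.8 for Car10, 74.0 for Adm, 89.3 for Dbc1, 109 for 1810031K17Rik and 154 for Alg3. Over 2304 genes with 200 to 900 Pv UMI the median was 42.9, with quartiles of 22.4 and 80.9, and Pvalb had 70.8. Uneven counts between Pv batches were thus common among all genes. The measure also grows with the UMI of a gene, from 212 Pv UMI for Adm to 879 for Dbc1, so the members are not ranked by it. The cause of the differences between batches was not tested.

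**Figure D3:**
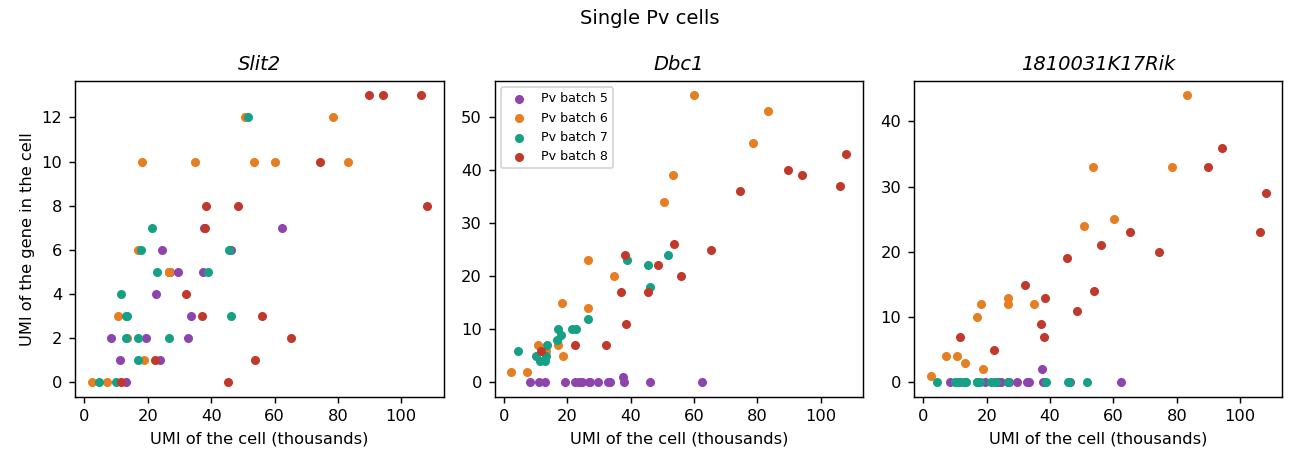
UMI of Slit2, Dbc1 and 1810031K17Rik in each single Pv cell against the total UMI of the cell, coloured by library batch. Dbc1 UMI go up with cell depth in batches 6, 7 and 8 and stay at 0 or 1 in batch 5 at every depth, and those of 1810031K17Rik go up with depth in batches 6 and 8 only.

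Other genes were also found in most cells of 1 batch and few of the other batch of an animal. A gene was counted here when it was found in at least 80% of the cells of 1 batch and at most 10% of the cells of the other. Between batches 5 and 6 this held for 830 of 4187 genes found in at least 80% of the cells of either batch (19.8%), among them Dbc1, Adm, Alg3 and 1810031K17Rik. Between batches 7 and 8 it held for 584 of 5566 genes (10.5%), among them 1810031K17Rik. Of the 584, 501 were on in batch 8 and 83 in batch 7, the median cell of batch 8 having 51157 UMI and that of batch 7 having 17416; the part of depth in this count was not tested. Between batches 5 and 6, of like depth, 501 were on in batch 5 and 329 in batch 6. The ChC animals had 247 of 2746 (8.99%) in animal 1 and 420 of 7008 (5.99%) in animal 2, with no member among them. The pattern of 1810031K17Rik, on in batches 6 and 8 and off in 5 and 7, was shared by 24 genes including itself, such as Adcy6, Chrm1 and Gprc5b. The mirror pattern, on in batches 5 and 7, was held by 5 genes. The pattern of Dbc1, on in batches 6, 7 and 8 and off in batch 5, was held by 29 genes including itself. These examples were chosen after their values were seen. By the same shares, no gene of the table was on in all 4 Pv batches and off in all 4 ChC batches, and 1 gene, Trib2, was on in all ChC and off in all Pv batches.

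Co-detection had the same structure. Every Pv cell held at least 2 of the 7 genes and 27 of 63 held all 7. Of these, 13 were among the 15 cells of batch 6 and 14 among the 16 cells of batch 8, with none in batches 5 and 7. The median number of members per cell was 3 in batch 5, 7 in batch 6, 4 in batch 7 and 7 in batch 8. In ChC batches 1 to 4 the medians were 0, 1, 2 and 1, and 23 of 63 ChC cells held none. The 3 ChC cells with 4 members were deep, with a median of 554495 UMI, against 24115 UMI in the cells with none. Depth and the number of members found in a ChC cell went together.

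Slit2 and Nog were found together in 50 of 63 Pv cells, which was 89.3% of the cells with Slit2 and 92.6% of those with Nog. Slit2 and Car10 were found together in all 56 Pv cells with Slit2. Dbc1 and 1810031K17Rik were together in all 32 Pv cells with 1810031K17Rik, and Dbc1 and Alg3 in all 44 with Alg3. Adm and 1810031K17Rik shared 31 Pv cells, all from batches 6 and 8, where every cell held both. In batches 5 and 7 they shared none. In batch 5, Dbc1, Alg3 and 1810031K17Rik were each found in 1 cell, the same cell for all 3, and Adm in another. Apart from that cell, the co-detection of Dbc1, Alg3 and 1810031K17Rik came from the batches in which they were common, whereas Slit2, Nog and Car10 were found together in cells of every Pv batch.

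Pvalb served as a comparison within Pv cells. Over the 22 pairs of a member and a batch, with 15 or 16 cells each, Pearson's r between the log level of the member and that of Pvalb ran from -0.669 for Dbc1 in batch 7 to 0.555 for Slit2 in batch 6. The median was 0.042. The cells share batch, library preparation and few UMI per gene, and in such sparse counts a weak correlation is no finding.

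Among the 9829 genes that passed the filter, those most like each member were sought by Pearson's r of log2(CPM + 1) over the 8 batches, a measure dominated by the contrast between cell types. For Slit2 they were Sepn1 (r = 0.98), the agouti gene a (0.98) and Asphd1 (0.97). For Nog they were Arl2 (0.95), Slit2 (0.95) and Kcnmb4 (0.95), the last a subunit of large-conductance potassium channels. For Car10 they were Tmem183a (0.99), Arl2 (0.98) and Slit2 (0.95). All 7 genes were chosen on that contrast, so likeness among them follows in part from the choice.

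The batch-dependent members had other neighbours. For Dbc1 the most alike were Cep68, Pus1 and 2700097O09Rik, each with r = 0.93. Adm had D6Mm5e (0.97), Tcap (0.97) and Alg3 (0.96), and Alg3 had Spr (0.97), Rnd2 (0.96) and Adm (0.96). For 1810031K17Rik they were Hhatl, Ssbp1 and 1700034H15Rik, each with r = 0.96. Ssbp1, the mitochondrial single-stranded DNA-binding protein, stood at 113 and 59.1 CPM in batches 6 and 8 and at 0 in the other 6 batches.

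The members were spread over 6 chromosomes of the mm9 genome. Slit2 lay at chr5:48374394-48697017 on the plus strand, Dbc1 at chr4:68422406-68615431 on the minus strand, and Adm at chr7:117771183-117773333 on the plus strand. Alg3 lay at chr16:20605531-20610822 and 1810031K17Rik at chr1:75131789-75138942, both on the minus strand. Nog, at chr11:89161952-89163873 on the minus strand, and Car10, at chr11:92960604-93463065 on the plus strand, shared a chromosome at a distance of 3796730 bases. The gene bodies ranged from 1922 bases for Nog, which has 1 exon, to 502462 bases for Car10.

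Genes beside the batch-dependent members were counted in the same batches. Fam134a, 417 bases from 1810031K17Rik on the opposite strand, had 4, 39, 49 and 342 UMI in Pv batches 5 to 8. It was thus present in batch 7, where 1810031K17Rik had 0. Ece2, 851 bases from Alg3, had 94, 55, 15 and 92 UMI, and was high in batch 5, where Alg3 had 1. Vwa5b2, 80 bases from Alg3 on the other side, had 1, 1, 19 and 9 UMI. Sbf2, 12748 bases from Adm on the opposite strand, had 29, 121, 36 and 115 UMI, highest in batches 6 and 8, as was Adm. The neighbours of Alg3 and 1810031K17Rik named here thus differed from them in the order of the Pv batches by UMI, and that of Adm did not. Whether the counting used the strand is not given in the sources used here.

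Core promoters of 2 genes are shown, that of Slit2, found in every Pv batch, and that of 1810031K17Rik, on only in Pv batches 6 and 8. They are RefSeq windows on GRCm38.p6, chr5:47982905-47983204 on the plus strand and chr1:75141642-75141941 on the minus strand, and capitals mark TATAAA. Both windows held that motif once, searched on both strands. The windows of Car10, Dbc1, Adm and Alg3 held none, and 13.6% of 32851 promoters of the same length held at least 1. A match or its absence describes these letters only, and 6 of the 7 members had a window.
Slit2: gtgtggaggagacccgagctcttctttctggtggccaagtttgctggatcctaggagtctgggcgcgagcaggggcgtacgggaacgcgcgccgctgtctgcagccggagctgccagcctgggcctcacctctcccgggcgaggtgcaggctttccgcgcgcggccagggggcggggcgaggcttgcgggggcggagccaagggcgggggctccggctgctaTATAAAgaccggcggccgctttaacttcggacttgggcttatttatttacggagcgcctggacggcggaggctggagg
1810031K17Rik: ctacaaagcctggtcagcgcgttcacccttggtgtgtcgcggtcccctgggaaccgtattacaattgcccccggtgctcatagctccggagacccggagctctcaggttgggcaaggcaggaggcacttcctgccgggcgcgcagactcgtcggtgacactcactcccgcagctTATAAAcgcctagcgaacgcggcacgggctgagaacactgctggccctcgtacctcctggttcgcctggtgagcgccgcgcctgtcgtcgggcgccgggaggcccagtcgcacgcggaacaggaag

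The genes around each member in its pathway were then compared between the animals, 2 Pv against 2 ChC, with edgeR's quasi-likelihood test. Of 9829 genes tested 0 (0%) passed a Benjamini-Hochberg adjusted p of 0.05, and the lowest adjusted p of any gene was 0.185. At an unadjusted p under 0.05 there were 261 genes higher in Pv (2.66%) and 355 lower (3.61%), and DESeq2 called 150 genes. The lists around the members held 122 genes, of which 62 were tested and 0 were called. At an unadjusted p under 0.05, 4 of the 62 were higher in Pv and 3 were lower. Their median log2 fold change was 0.03 against -0.04 over all genes tested.

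In the Slit-Robo list, 10 of 13 genes were tested. Slit3, another Slit ligand, stood at 358, 10.5, 115 and 84.8 CPM in Pv batches 5 to 8 and at 20.4 ± 15.9 CPM in ChC batches. Its log2 fold change of 2.93 (SE 1.20) had an edgeR adjusted p of 0.756, and batch 6, the highest for Slit2, was the lowest for Slit3. The receptor Robo2 stood at 173 ± 84.97 CPM in Pv and 477 ± 284 CPM in ChC batches, with a UMI in 61 and 62 of 63 cells. Srgap3, a GTPase-activating effector of Robo, was at 472 ± 288 and 488 ± 197 CPM. Most Pv cells with the ligand transcript thus also held that of a receptor.

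Around Nog, the antagonist and ligand lists were near the floor. None of the 10 other BMP antagonists and none of the 9 BMP ligands passed the filter on low counts. Chrdl1 stood at 4.51 ± 5.10 CPM in Pv and 36.6 ± 68.7 CPM in ChC batches, the latter resting on 140 CPM in batch 2. Twsg1 was at 0 in all Pv batches and at 18.9 ± 22.5 CPM in ChC batches. The ligands Bmp3 and Bmp5 stayed at or below 4.19 CPM in all 8 batches.

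Of 16 BMP receptors, SMADs and Id targets 10 were tested. Smad1, a transducer of BMP signals, had 0, 0, 1.95 and 0 CPM in Pv batches 5 to 8 and 2.14, 21.2, 42.3 and 6.26 CPM in ChC batches 1 to 4 (edgeR adjusted p = 0.704). With TMM scaling all ChC batches lay above all Pv batches. The nearest pair, ChC batch 1 at 2.14 CPM and Pv batch 7 at 1.95 CPM, had 1 UMI each. Without that scaling their order reverses, so the separation is not resolved. The same non-overlap, with ChC higher, was found for 285 of 9829 genes tested. Smad5 was at 59.1 ± 37.8 CPM in Pv and 42.9 ± 53.5 CPM in ChC batches. Id2, a target of BMP signalling, ranged from 0 to 104 CPM over the Pv batches and from 2.14 to 561 CPM over the ChC batches. Acvr2b, an activin and BMP receptor, was the list's gene higher in Pv at an unadjusted p under 0.05, and stood at 0, 184, 9.76 and 11.8 CPM in Pv batches 5 to 8. Batch 6 held 88 of its Pv UMI and batch 8 held 11. ChC batch 1, at 8.58 CPM, lay above Pv batch 5.

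Of the neurexins, which Car10 binds, Nrxn3 had a UMI in all 63 Pv and all 63 ChC cells. It stood at 1641, 5495, 1928 and 2270 CPM in Pv batches 5 to 8 and at 8908, 7174, 7046 and 1769 CPM in ChC batches 1 to 4. Its log2 fold change was -1.12 (SE 0.416, edgeR adjusted p = 0.716), and the groups overlapped. Of 15 other carbonic anhydrases and related genes 5 were tested, among them Car2 at 54.4 ± 61.6 and 25.2 ± 27.3 CPM and Car11 at 17.5 ± 16.0 and 14.7 ± 12.6 CPM in Pv and ChC batches.

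The relatives of Dbc1 did not share its gap. Fam5b stood at 16.2, 161, 46.9 and 67.7 CPM in Pv batches 5 to 8, and Fam5c at 18.5, 203, 39.1 and 30.1 CPM. Batch 6 was highest for both, as for Dbc1, and batch 5 lowest, but they were found there with 7 and 8 UMI, against 1 UMI of Dbc1. Neither differed beyond the spread of the batches from its ChC level, 29.2 ± 21.8 CPM for Fam5b and 36.6 ± 22.7 CPM for Fam5c.

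Genes of adrenomedullin signalling were read with Adm. Ramp3, a receptor partner, stood at 35.0 ± 26.4 CPM in Pv and 61.3 ± 25.5 CPM in ChC batches, and Pam, the enzyme that amidates peptide hormones, at 534 ± 360 and 917 ± 446 CPM. Mme, a peptidase, was at 4.58 ± 3.92 CPM in Pv batches and at 0, 273, 16.2 and 26.6 CPM in ChC batches 1 to 4 (edgeR adjusted p = 0.704). None of the 4 tested genes of 12 listed was called.

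Adm is also known as a target of hypoxia-inducible factors, and 7 of 12 other hypoxia-induced genes were tested with 0 called. Vegfa stood at 99.2, 37.7, 82.0 and 8.59 CPM in Pv batches 5 to 8, and Mxi1 at 242, 18.8, 449 and 57.99 CPM, both lower in batches 6 and 8, where Adm was high. Pdk1 was at 64.6, 0, 17.6 and 17.2 CPM. Bnip3, a mitochondrial protein of the same list, went the other way, at 34.6, 161, 11.7 and 66.6 CPM, higher in batches 6 and 8, and was chosen after its values were seen. Egln3 and Ankrd37, chosen likewise, were highest in batch 6, with 7 and 6 UMI there. The hypoxia-induced genes thus had no common order over the Pv batches.

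Around Alg3, 14 of 20 genes of lipid-linked oligosaccharide assembly and 7 of 8 oligosaccharyltransferase subunits were tested. Dolk, the dolichol kinase, stood at 0, 69.1, 0 and 15.03 CPM in Pv batches 5 to 8 and at 0.377 ± 0.755 CPM in ChC batches (log2 fold change 5.14, SE 1.83, edgeR adjusted p = 0.704). It was thus found in batches 6 and 8 alone of the Pv batches. Alg2 stood at 16.5 ± 6.95 CPM in Pv and 90.3 ± 88.8 CPM in ChC batches, and Dpm1 at 189, 4.19, 5.86 and 29.0 CPM in Pv batches 5 to 8, with batch 5 highest.

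Tusc3, a subunit of the oligosaccharyltransferase, stood at 43.8, 1372, 215 and 5.37 CPM in Pv batches 5 to 8 and at 0, 13.7, 70.9 and 1.56 CPM in ChC batches 1 to 4. Its log2 fold change was 3.95 (SE 1.29, edgeR adjusted p = 0.679), the lowest adjusted p of the listed genes. DESeq2 called it. Over the alternative fits the adjusted p ran from 0.00633 without animal 4 to 1.00 without animal 3, and without animal 3 the log2 fold change was 1.57. Those fits have 1 Pv animal, assumed to vary like the 2 ChC animals. Rpn1, another subunit, was at 140 ± 63.3 CPM in Pv and 77.4 ± 49.8 CPM in ChC batches.

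Markers of other cell types were set beside the batches in which members were high. Of 6 endothelial and mural markers 4 had counts, with Cldn5 and Vtn at 0, and their summed level was 11.5, 33.5, 66.4 and 125.6 CPM in Pv batches 5 to 8. Tek was the most abundant over all 8 batches. Rgs5, a pericyte marker, stood at 0 in batches 5 and 6 and at 11.7 and 103 CPM in batches 7 and 8. In batch 6, where Adm was highest, Rgs5 was at 0 and Tek at 18.8 CPM. Flt1, of the same list and chosen after its values were seen, had its highest Pv level there, 12.6 CPM from 6 UMI.

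Of 6 oligodendrocyte markers 4 had counts, with Mag and Mobp at 0, and the sum was 6.92, 2.09, 170 and 102 CPM in Pv batches 5 to 8, with Mbp most abundant over all 8 batches and at 0 in batches 5 and 6. Of 6 astrocyte markers 5 had counts, with Gfap at 0, and the sum was 78.5, 43.98, 260 and 264 CPM, with Aldoc above Slc1a3 in each Pv batch and Slc1a3 most abundant over all 8 batches. Of 6 pyramidal markers 3 had counts, with Slc17a6, Neurod6 and Tbr1 at 0, and the sum was 11.5, 2.09, 242 and 26.8 CPM, with Slc17a7 most abundant over all 8 batches. Batch 6 thus had the lowest sum of each of these 3 lists among the Pv batches, and the highest level of 6 of the 7 members. It did not have the lowest sum of endothelial and mural (33.5 CPM), microglia (6.28 CPM) or other interneuron markers (467 CPM). Batch 8, in which Adm, Alg3 and 1810031K17Rik were also in every cell, had an astrocyte sum of 264 CPM, near the 260 CPM of batch 7. The order of this pair depends on the TMM scaling. The sums of endothelial and mural markers, 125.6 CPM, and of other interneuron markers, 632 CPM, were in batch 8 the highest of the Pv batches. Of 6 microglia markers 5 had counts, with C1qa at 0 and P2ry12 most abundant over all 8 batches, and the sum was at most 9.76 CPM in the Pv batches. Other interneuron markers, of which 6 of 8 had counts with Vip at 0 and Cck most abundant over all 8 batches, summed to 92.3, 467, 201 and 632 CPM, of which Npy alone gave 477 CPM in batch 8. The part of other cells, of batch and of depth in the members' patterns was not tested beyond these values.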

How the data were processed

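RNA of single cells was amplified linearly and sequenced in 8 library batches, and per the labels the reads were aligned with Bowtie 0.12.7 to mm9. The deposited values are counts of UMI made by the authors per transcript row and cell, not normalized. The 27207 rows were summed per gene name. Of 2229 genes with several rows and counts, 883 (39.6%) had identical rows, which such a sum counts again; each member had 1 row. Of 128 cell columns, 2 were empty and left out.

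The members and gene lists were chosen with earlier results of these data known. The main test was edgeR 4.0.16 (R 4.3.3) on UMI summed per animal, with TMM, filterByExpr and Benjamini-Hochberg adjustment over all genes; DESeq2 1.42.0 was an alternative. CPM and log2(CPM + 1) were computed from batch sums. Detection used at least 1 UMI, and shares at fixed depth were computed exactly from the hypergeometric distribution. Ratios have exact 95% intervals conditional on the sum of both counts. Python 3.11.15 with numpy 2.4.6, pandas 2.3.3, scipy 1.17.1 and matplotlib 3.10.9 was used. The edgeR fit was tested on simulated counts.

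Named genes were all 7 members, every called gene of a list and otherwise the 2 with the highest mean level plus the tested gene with the largest absolute log2 fold change, the 3 genes most alike to each member, and Pvalb. A gene that this rule names is not reported here. Neighbouring genes and genes with shared on and off patterns were chosen afterwards. Expected detections at an equal level and the variation between cells and batches were added after seeing the data. No sample or file was left out.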

Additional observations from a re-analysis of the deposited data

Results flagged for a closer look

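Of 15 groups of 4 batches examined, 3 held a batch far from the others by Dixon's ratio, taken on log2(CPM + 1). The groups marked depend on that scale. Chance gives this for about 1 group in 20 of continuous values, a rate that does not hold for the groups of Nog and Alg3, where any count beside 3 batches at 0 gives a ratio of 1. For Nog, ChC batch 2 stood at 1.52 CPM and the other 3 ChC batches at 0, a difference of a single UMI. For Alg3, ChC batch 4 stood at 2.35 CPM, from 3 UMI in 3 cells, with the other ChC batches at 0. For Dbc1, Pv batch 5 stood at 2.31 CPM against 346 to 678.5 CPM in the other 3 Pv batches. On log2(CPM + 1) the gap was 0.874 of the range, and on CPM it was a smaller part. The causes were not tested. Dixon's ratio does not mark a split of 2 against 2 batches, the form taken by 1810031K17Rik.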

How the results depend on the processing

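No member difference reversed, which says little for genes chosen on this contrast. Of 91 alternative values of the differences of single members, 86 moved by less than 1 SD and 5 moved further, all under a pseudocount of 10 CPM in place of 1. That measure is loose for members uneven between Pv batches. The SD of log2(CPM + 1) over Pv batches was 4.37 for 1810031K17Rik and 3.58 for Dbc1, against 0.422 for Slit2. For 1810031K17Rik, differences of 2.52 without batch 6 and 5.49 without batch 7 did not count as moved. The median difference of the members ranged from 4.10 to 5.87 when each batch was left out, and was 3.03 with that pseudocount against 4.83. The number of members with all Pv batches above all ChC batches was 4, became 5 without batch 4 or batch 7 and 6 without batch 5, and was 4 without each of the others.

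Over all genes, edgeR on animals called 0 genes, DESeq2 called 150, no filter on low counts gave 80, batches as samples gave 5, and batches as samples with DESeq2, an alternative chosen after seeing the data, gave 81. Leaving out each animal gave 7 to 100; such a fit assumes that the lone animal of its group varies like those of the other group. Of the listed genes including markers, DESeq2 and the fit with no filter each called 2, batches with DESeq2 called 1, and leaving out each animal gave 0 to 2. The cause was not tested. Batches as samples treats batches of an animal as independent.

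Over the 7 genes, the mean share of Pv cells with a UMI was 74.8% and became 47.5% at 5000 UMI per cell. In ChC cells it was 15.9% and became 6.80% with at least 2 UMI, 4.11% at 10000 UMI and 2.57% at 5000 UMI per cell. A higher minimum count or a lower depth lowers any such share by construction, and the part of depth was not tested. The 3 ChC cells with at least 4 members became 0 with at least 2 UMI. The bound of the pooled Adm ratio, 169, ran from 82.3 to 212 without each Pv batch, an alternative chosen after seeing the data. No paired analysis was possible because the groups share no animal.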

Other observations

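Medial ganglionic eminence and fast-spiking markers summed to 5298, 4699, 3480 and 6630 CPM in Pv batches 5 to 8 and to 7797, 9006, 7072 and 5550 CPM in ChC batches 1 to 4, with Erbb4, at 1470 ± 287 CPM in Pv and 4018 ± 506 CPM in ChC batches, the most abundant. Of the potassium channels in this list, Kcnc1 stood at 570 ± 425 CPM in Pv and 866 ± 478 CPM in ChC batches, and Kcnc2 at 611 ± 447 and 260 ± 146 CPM. Kcnc1 had a log2 fold change of -0.335 (SE 0.667) and an edgeR adjusted p of 0.991. Kcnc2 was higher in Pv at an unadjusted edgeR p under 0.05, with an adjusted p of 0.704. Syt2, a synaptic vesicle protein of the same list, stood at 31.0 ± 23.9 and 6.65 ± 4.99 CPM, with a log2 fold change of 2.46 (SE 1.51). Neither Kcnc2 nor Syt2 was named by the rule above. Lhx6 went the other way, at 164 ± 114 CPM in Pv and 479 ± 319 CPM in ChC batches. Nkx2-1, Sox6, Tac1 and Scn1a also had lower means in Pv. Over the 10 genes of the list the median log2 fold change was -0.291. Gad2, the other enzyme of GABA synthesis, was at 448, 117, 33.2 and 147 CPM in Pv batches 5 to 8 and at 813, 727, 162 and 575 CPM in ChC batches 1 to 4. Npy, a neuropeptide of other interneurons, stood at 477 CPM in Pv batch 8 and at 0 in Pv batches 5, 6 and 7. In ChC batches 1 to 4 it stood at 0, 66.8, 0.755 and 364 CPM. Batches thus differed within an animal in Npy in both cell types, as Pv batches did in several of the 7 genes.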
